A study of Mus musculus with 407 samples.

Results

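Musk, Agrn, Lrp4, Dok7, Rapsn, Colq, Ache, Erbb3, Etv5 and Ncam1 are 10 genes that build and keep the neuromuscular junction, the synapse at which a motor nerve drives a muscle fibre. They were chosen by name for that role, out of 24458 genes in the count table, and their RNA was followed across muscles, ages and sexes. At the junction, agrin from the nerve binds LRP4 on the muscle fibre, LRP4 activates the kinase MuSK, and MuSK works through the adaptor DOK7 and the scaffold rapsyn to gather acetylcholine receptors under the nerve ending. ColQ anchors acetylcholinesterase in the cleft, and neuregulin acts through ERBB receptors and the transcription factor ETV5 on the nuclei under the synapse. In a fibre with an intact nerve these nuclei make most of the junction's RNA, and a fibre that has lost its nerve is known to make MuSK, NCAM and receptor subunits along its whole length.

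The mice were untreated C57BL/6J males and females, aged 6, 12, 18, 21, 24 or 27 months, bought at several ages and housed at the study's site before collection. Diaphragm, gastrocnemius, soleus and tibialis anterior were sequenced as total RNA, which gave 98 diaphragm, 104 gastrocnemius, 103 soleus and 102 tibialis anterior libraries in 48 groups of muscle, sex and age, with 6 to 10 libraries in a group. The paper states that each age group was collected on a single day, so age and collection day cannot be told apart. It does not say whether the males and females of an age shared that day, so sex and collection day may also go together. No label ties the muscles of a mouse to each other. The RNA came from whole muscle, in which fewer cells of a type and less RNA per cell cannot be told apart, and a count per gene does not separate the nerve's splice form of agrin from that of muscle.

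Library totals ran from 38583802 to 300089909 counts, with a median of 72766895 and with 104836980 as the second highest. All 10 genes passed the filter on low counts in all 8 combinations of muscle and sex. The slow myosin gene Myh7 had a median of 6176 CPM (counts scaled to a common library size) in soleus and 2.57 CPM in tibialis anterior, and the fast myosin gene Myh4 had medians of 40210 CPM in gastrocnemius and 107 CPM in soleus. By CPM summed over 8 liver genes, the 3 highest libraries were male diaphragm 21 months replicate 3 (30000 CPM), male diaphragm 27 months replicate 6 (11360 CPM) and female soleus 18 months replicate 6 (2312 CPM). No limit was set for this ranking. The first of the 3 also had the highest total. The paper's list of samples has fewer male diaphragm samples at 21 months than the 7 used here.

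A set of 8 libraries stood apart because their gene levels followed the GC content of the genes. The set included male diaphragm 27 months replicate 6, which also had liver genes. The slopes of the 8 lay beyond 0.5 log2 units per 10 points of GC content, while the other 399 libraries lay between -0.24 and 0.28. Of the 8, 6 were diaphragm libraries, in which GC-rich genes were low, and 2 were gastrocnemius libraries, in which GC-rich genes were high. In the 6 diaphragm libraries Rapsn, with 58.5% GC in its longest coding transcript, stood between 0.0524 and 0.643 CPM, against a median of 9.31 CPM in the other diaphragm libraries. Musk, with 50.2% GC, stood between 14.7 and 23.3 CPM in the same libraries, against a median of 21.8 CPM. The SD of the diaphragm values within a group was smaller without the 8 libraries, at 0.30 against 1.44 on the log2 scale for Rapsn, 0.48 against 1.05 for Dok7, 0.40 against 0.82 for Ache and 0.26 against 0.57 for Agrn, while that of Musk was 0.35 either way. Results that rest on these libraries are given with and without them.

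**Figure D1:**
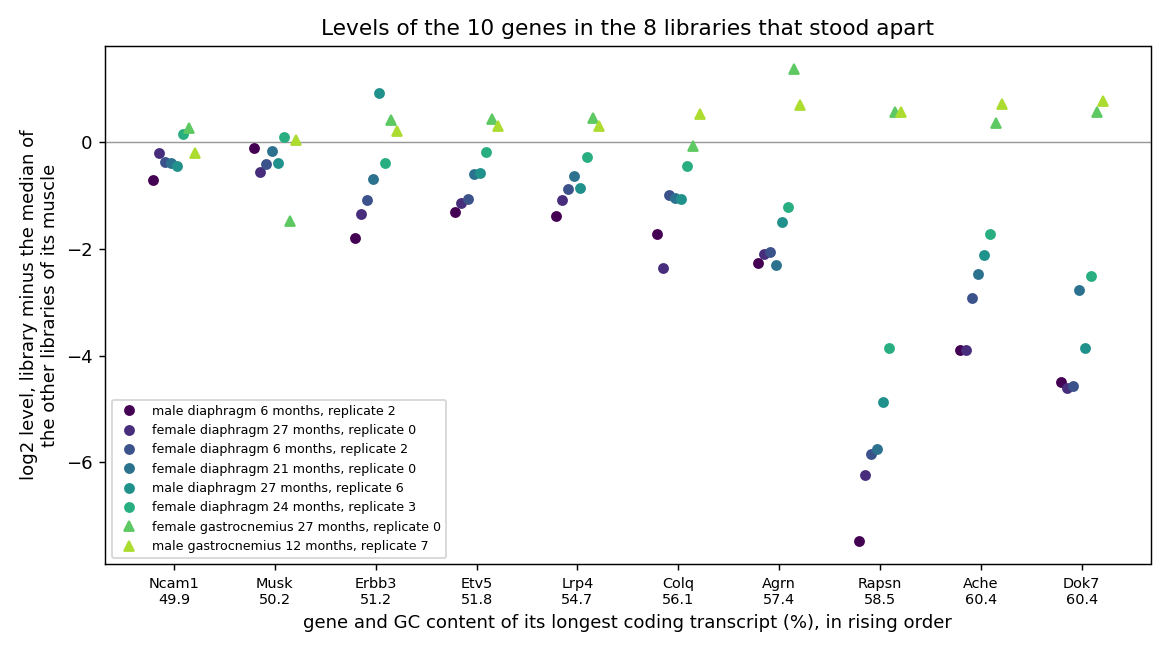
Level of each of the 10 genes in the 8 libraries that followed GC content, as the log2 difference (vertical axis) from the median of the other libraries of the same muscle, with genes in rising order of GC content (horizontal axis, percent). Each point is 1 library, circles are diaphragm and triangles gastrocnemius. Rapsn, Ache and Dok7 lie far below 0 in the 6 diaphragm libraries, and Ncam1 and Musk lie nearer to 0 there.

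Musk, the gene of the receptor kinase, was the member that moved most with age, and it rose in all 3 limb muscles of females. Its promoter is shown first because Musk carries 4 of the 5 age calls among the members, beside that of Dok7, the gene of the adaptor that binds MuSK and the remaining age call, and that of Ache, the member with the largest fold between the diaphragm and a limb muscle. Each is the sequence of the 250 bases before a RefSeq start of the gene on GRCm38.p6, 5′ to 3′ on the gene's strand. Matches to the E-box CANNTG, the letters that myogenic factors can bind, are in capitals. The windows lie at chr4:58285712-58285961 (plus strand) for Musk, at chr5:35056516-35056765 (plus strand) for Dok7 and at chr5:137288004-137288253 (plus strand) for Ache.
Musk: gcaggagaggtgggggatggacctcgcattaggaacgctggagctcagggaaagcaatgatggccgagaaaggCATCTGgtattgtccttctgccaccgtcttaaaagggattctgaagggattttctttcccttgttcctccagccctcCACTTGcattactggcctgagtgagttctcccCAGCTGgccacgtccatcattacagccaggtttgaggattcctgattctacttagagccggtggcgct
Dok7: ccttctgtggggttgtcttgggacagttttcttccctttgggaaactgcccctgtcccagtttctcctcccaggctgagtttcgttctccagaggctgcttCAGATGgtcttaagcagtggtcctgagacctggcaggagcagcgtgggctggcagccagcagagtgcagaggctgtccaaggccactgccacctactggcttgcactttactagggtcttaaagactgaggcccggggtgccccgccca
Ache: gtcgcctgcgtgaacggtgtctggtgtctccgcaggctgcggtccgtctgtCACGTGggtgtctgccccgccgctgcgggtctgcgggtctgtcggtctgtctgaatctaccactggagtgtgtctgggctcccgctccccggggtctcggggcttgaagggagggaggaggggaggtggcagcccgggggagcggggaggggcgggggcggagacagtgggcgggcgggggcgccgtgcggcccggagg
The Musk window holds 3 matches, 1 of which reads CAGCTG, and the printed Dok7 and Ache windows hold 1 each. Dok7 has a second entry, at chr5:35056822-35057071, which holds 0 matches and is not printed. In the GENCODE annotation of GRCm38 the Ache gene starts at chr5:137287519, before the Ache window. Searched on both strands, CANNTG was present in 66.2% of 32851 promoters of the same length and CAGCTG, which is also a CANNTG match, in 13.0%. The letters CCGGAA, the N-box bound by ETS factors, were in none of the 8 windows of the 5 members with an entry and in 12.0% of all promoters. Lrp4, Rapsn, Colq, Erbb3 and Ncam1 had no entry.

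In female gastrocnemius, Musk (chr4:58285960-58374303, plus strand, GRCm38) ran from 18.6 to 31.98 CPM at 6 months with a median of 25.0 CPM. It ran from 43.7 to 58.6 CPM at 24 months with a median of 50.7 CPM, and from 21.5 to 61.0 CPM at 27 months with a median of 47.6 CPM. The groups of 6 and 24 months did not overlap, and at 27 months 9 of 10 libraries were above every library of 6 months. A gene was called at an age when its fold change against 6 months was over 1.5 and its Benjamini-Hochberg adjusted p from edgeR was below 0.05. Musk was called at 21 months (log2 fold change 0.90 ± 0.11 SE, adjusted p = 6.66e-08), at 24 months (1.01 ± 0.11, 2.015-fold, adjusted p = 8.14e-10) and at 27 months (0.90 ± 0.11, 1.87-fold, adjusted p = 5.29e-09). The lowest library of 27 months, at 21.5 CPM, was a library that followed GC content, and without the 8 such libraries the lowest was 41.9 CPM and the log2 fold change 0.99 (adjusted p = 3.53e-13).

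In female soleus, Musk ran from 29.3 to 40.5 CPM at 6 months with a median of 33.9 CPM, and from 42.2 to 76.4 CPM at 27 months with a median of 53.9 CPM. The groups did not overlap, and Musk was called at 21, 24 and 27 months, with a fold of 1.75 at 24 months (log2 0.805 ± 0.11 SE, adjusted p = 5.23e-07) and of 1.65 at 27 months (adjusted p = 3.88e-06). In female tibialis anterior it ran from 9.51 to 11.9 CPM at 6 months with a median of 11.2 CPM, and from 12.7 to 36.8 CPM at 27 months with a median of 18.3 CPM. These groups did not overlap either, and Musk was called at 27 months (log2 0.91 ± 0.15 SE, 1.88-fold, adjusted p = 1.49e-05). At 21 and 24 months its fold changes in this muscle were 1.44 and 1.44, with adjusted p of 0.0225 and 0.0118, under the fold limit.

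In males, Musk was called in tibialis anterior alone, at 27 months (log2 0.77 ± 0.15 SE, 1.70-fold, adjusted p = 0.000206). It ran there from 21.8 to 31.6 CPM at 6 months with a median of 25.8 CPM, and from 28.2 to 80.5 CPM at 27 months with a median of 43.3 CPM. In this pair 8 of the 10 older libraries were above every younger library. Without the library at 80.5 CPM the log2 fold change was 0.65 (adjusted p = 0.00149). In male soleus the medians were 51.7 CPM at 6 months and 67.7 CPM at 27 months (1.41-fold, adjusted p = 0.00109), and in male gastrocnemius they were 81.4 and 101 CPM (1.295-fold, adjusted p = 0.0113), both under the fold limit.

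In the diaphragm Musk passed no test of age in either sex. In males it ran from 20.2 to 28.0 CPM at 6 months with a median of 22.6 CPM, and from 14.6 to 87.4 CPM at 27 months with a median of 23.1 CPM. In females it ran from 15.8 to 24.1 CPM with a median of 20.2 CPM, and from 11.4 to 25.5 CPM with a median of 17.8 CPM. The older groups reached below and above the younger ones. The library at 87.4 CPM, male diaphragm 27 months replicate 8, stood apart in other members too: Lrp4 was at 7.45 CPM against 15.8 to 29.9 CPM in the other 9 libraries of its group, and Colq at 2.60 CPM against 4.58 to 9.89 CPM. Without it the log2 fold change of Musk at 27 months was 0.04 (adjusted p = 0.925), against 0.39 (adjusted p = 0.212) with it.

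**Figure D2:**
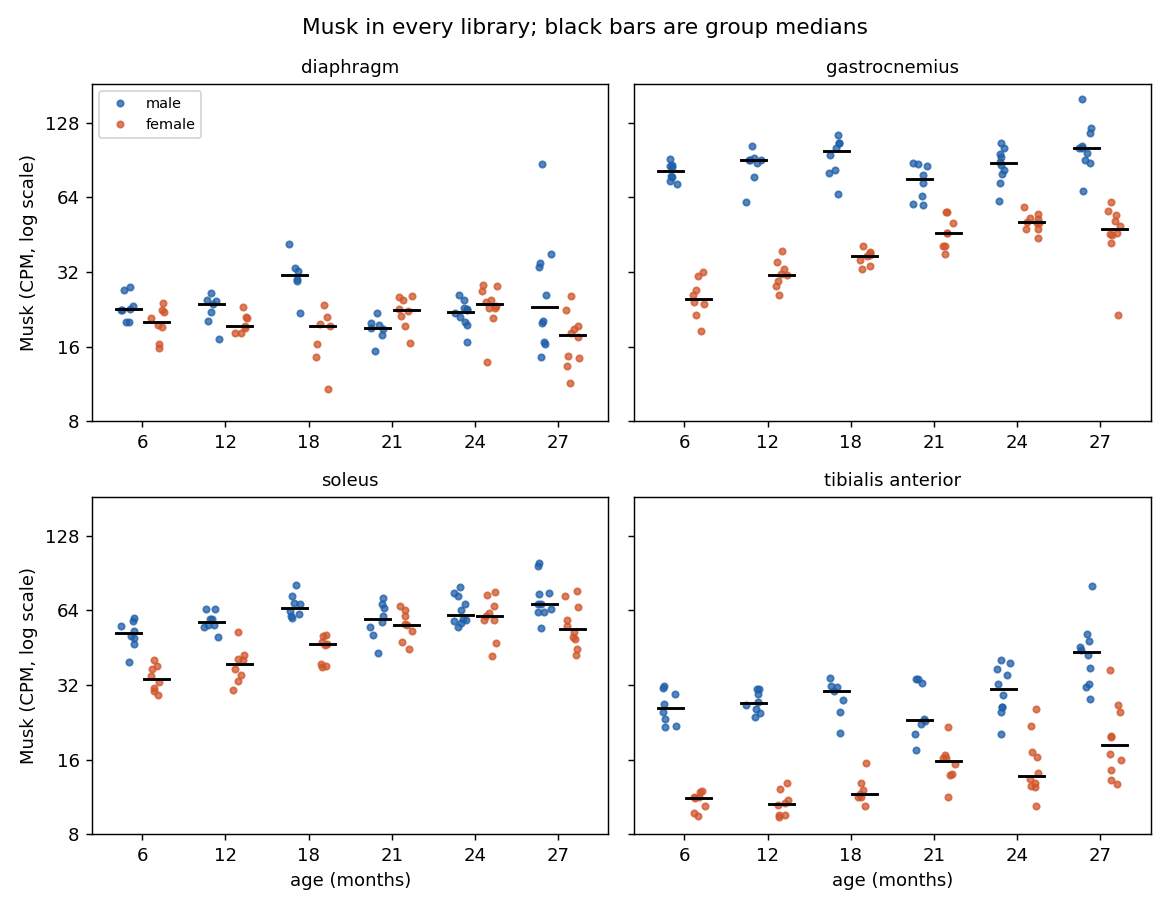
Musk in every library, in CPM on a log scale (vertical axis), by age in months (horizontal axis), muscle (panels) and sex (colours), with black bars at the group medians. Male values lie above female values in gastrocnemius at every age, female limb values rise with age, and 1 male diaphragm library of 27 months stands at 87.4 CPM.

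Over all 10 genes, 5 of the 80 combinations of gene, muscle and sex were called at any older age, all higher, 1 in males and 4 in females. The share of all tested genes called was 11% in male and 2.95% in female diaphragm, where no member was called. It was 8.06% in male gastrocnemius with 0 of 10 members called and 9.44% in female gastrocnemius with 1 of 10. It was 2.85% in male soleus with 0 of 10, 8.52% in female soleus with 2 of 10, 8.53% in male tibialis anterior with 1 of 10 and 9.25% in female tibialis anterior with 1 of 10. With an adjusted p below 0.05 and no fold limit, 9 of 40 combinations passed in males and 16 of 40 in females, none of them in the diaphragm. By that rule 38.8% of all genes passed in female gastrocnemius with 8 of 10 members, 29.6% in female tibialis anterior with 5, 32.5% in female soleus with 3 and 4.17% in female diaphragm with 0. In males 29.6% passed in gastrocnemius with 4 members, 27.9% in tibialis anterior with 4, 6.27% in soleus with 1 and 16.1% in diaphragm with 0. In the diaphragm, 2 members in males (Colq and Ncam1) and 1 in females (Dok7) had an unadjusted p below 0.05 at an older age in edgeR, and limma-voom called 0 as well. Each member had several older ages tested there, and the share of all genes at that unadjusted limit was not counted.

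Dok7 was the only other member called. In female soleus it ran from 2.63 to 5.37 CPM at 6 months with a median of 3.85 CPM, and from 4.10 to 8.77 CPM at 24 months with a median of 6.86 CPM. The groups overlapped, and Dok7 was called at 24 months (log2 0.80 ± 0.15 SE, 1.74-fold, adjusted p = 5.76e-05). At 27 months its median was 5.34 CPM, and the fold of 1.44 (adjusted p = 0.00679) was under the limit. In female gastrocnemius Dok7 went from a median of 2.47 CPM at 6 months to 3.39 CPM at 27 months, with 8 of 10 older libraries above every younger library and a fold of 1.41 (adjusted p = 0.000138). In female diaphragm the fitted log2 fold change at 24 months was 0.86 (adjusted p = 0.231), and without the libraries that followed GC content it was 0.81 ± 0.20 SE (1.75-fold, adjusted p = 0.00718), past both limits. The medians without them were 2.79 CPM at 6 months and 4.22 CPM at 24 months, and 3.92% of all genes were called in that comparison.

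Agrn, the gene of the ligand, passed the adjusted p at 1 age in 1 muscle, female gastrocnemius at 27 months (1.245-fold, adjusted p = 0.0322), where its highest library, at 36.3 CPM, was the library that followed GC content. Its median there went from 14.5 to 15.6 CPM. The fold without the 8 libraries that followed GC content was 1.10 (log2 0.14 ± 0.08 SE, adjusted p = 0.178), and Agrn passed at no age. Lrp4, the agrin receptor, went in female gastrocnemius from a median of 21.0 CPM at 6 months to 27.2 CPM at 27 months, with 9 of 10 older libraries above every younger library (1.31-fold, adjusted p = 1.23e-06). In male gastrocnemius it went from 19.7 to 26.3 CPM (1.27-fold, adjusted p = 0.000197) and in female soleus from 27.3 to 36.4 CPM (1.24-fold, adjusted p = 0.00176). In female tibialis anterior Lrp4 was 0.819-fold at 24 months (adjusted p = 0.00477), in the other direction. Rapsn, the scaffold under the receptors, had a fold of 1.12 at 27 months in female tibialis anterior (adjusted p = 0.0271) and medians of 15.2 and 16.4 CPM.

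Colq, the collagen tail of the esterase, was 1.30-fold higher at 27 months in female gastrocnemius (adjusted p = 0.00117) and 1.37-fold in female tibialis anterior (adjusted p = 0.0109), where it went from a median of 3.32 to 4.67 CPM. In soleus its mean was lower at 27 than at 6 months, at 12.65 against 16.24 CPM in males and 15.63 against 19.15 CPM in females. Neither fall passed the adjusted p. In male diaphragm its median was 10.3 CPM at 6 months and 7.69 CPM at 27 months, and its log2 fold change was -0.54 (adjusted p = 0.061). This comparison turned on single libraries. Without the 8 libraries that followed GC content it was -0.63 ± 0.16 SE (adjusted p = 0.0129), where 6.66% of all genes were called, without the 6-month replicate 2 alone it was -0.69 (adjusted p = 0.00824), and without the 27-month replicate 8 alone it was -0.46 (adjusted p = 0.106). Ache, the gene of the enzyme itself, was lower in female gastrocnemius at 21 months (0.834-fold, adjusted p = 0.00345) and at 24 months (0.881-fold, adjusted p = 0.0294) and passed nowhere at 27 months.

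Erbb3, a neuregulin receptor also made by Schwann cells, was 1.32-fold higher at 27 months in female gastrocnemius (adjusted p = 0.0309), with medians of 3.03 and 3.88 CPM. At 21 months its log2 fold change there was 0.49 (adjusted p = 0.0207), and without replicate 7 of 6 months it was 0.59 (adjusted p = 0.00732), just past the fold limit. In male tibialis anterior Erbb3 was 0.772-fold at 24 months (adjusted p = 0.0299). Etv5, the transcription factor, was lower with age in female tibialis anterior, where its median went from 13.3 CPM at 6 months to 11.6 CPM at 27 months, with 9 of 10 older libraries below every younger library (0.875-fold, adjusted p = 0.00712). Ncam1, the adhesion molecule that fibres without a nerve make outside the junction, went in female gastrocnemius from 13.2 to 14.8 CPM at 6 months to 15.6 to 21.5 CPM at 27 months, with medians of 14.2 and 19.7 CPM. The groups did not overlap, and the fold was 1.37 (adjusted p = 3.28e-06), under the limit. In male gastrocnemius its medians were 12.2 and 14.4 CPM (1.26-fold, adjusted p = 0.00241).

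A line on log2 age, which uses all 6 ages, passed an adjusted p of 0.05 in 18 of the 80 combinations, 17 rising and 1 falling. In female gastrocnemius 6 of 10 members rose, where 32.7% of all genes passed: Musk by 0.48 log2 units per doubling of age (adjusted p = 1.32e-11), Dok7 by 0.22 (adjusted p = 1.69e-05), Erbb3 by 0.21, Ncam1 by 0.19, Lrp4 by 0.17 and Colq by 0.14. In female soleus Musk (0.38, adjusted p = 1.01e-08), Dok7 (0.32, adjusted p = 4.6e-05) and Lrp4 (0.125, adjusted p = 0.000928) rose, where 30.0% of all genes passed. The falling line of Colq there passed only under alternatives, such as a stricter filter on low counts (-0.162, adjusted p = 0.0443). In female tibialis anterior Musk (0.39, adjusted p = 1.68e-05), Colq (0.24, adjusted p = 0.00125) and Rapsn (0.09, adjusted p = 0.00151) rose and Etv5 fell (-0.08, adjusted p = 0.00393), where 27.8% of all genes passed.

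In males 5 lines rose and none fell. Lrp4 (0.16, adjusted p = 2.23e-05) and Ncam1 (0.13, adjusted p = 0.0118) rose in gastrocnemius, where 27.8% of all genes passed. Musk rose in soleus (0.19, adjusted p = 0.00127), where 5.71% of all genes passed, and in tibialis anterior (0.25, adjusted p = 0.00896), where 20.5% passed. Ncam1 also rose in tibialis anterior (0.14, adjusted p = 0.0318), but without replicate 1 of 6 months its line had an adjusted p of 0.0598 and without replicate 7 of 27 months one of 0.0518. In the diaphragm 0 of 20 lines passed in edgeR or limma-voom. By the adjusted p in edgeR 10.7% of all genes passed there in males and 5.43% in females. At an unadjusted p below 0.05 in edgeR the count of lines was 0 too, and the share of all genes at that limit was not counted.

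**Figure D3:**
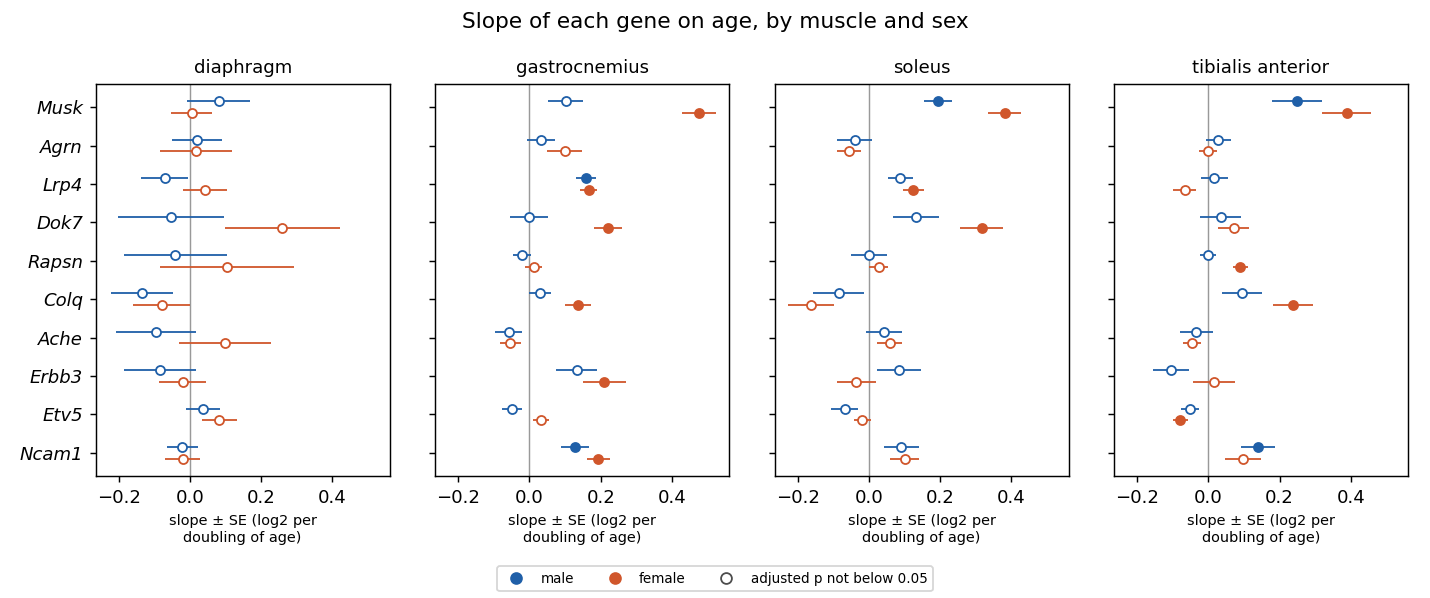
Slope of each gene on age, in log2 units per doubling of age with its SE (horizontal axis), by gene (rows), muscle (panels) and sex (colours). Filled points had an adjusted p below 0.05. Musk has the steepest filled points in the limb muscles, reaching 0.48 in female gastrocnemius, and no point is filled in the diaphragm.

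Whether the change from 6 to 27 months differed between muscles was tested as a difference of differences, averaged over the sexes, in 60 combinations of gene and muscle pair. Of these 14 passed, 11 of them in pairs with the diaphragm. The change of Musk was lower in diaphragm than in gastrocnemius (difference of log2 changes -0.52 ± 0.14 SE, adjusted p = 0.00446), soleus (-0.51, adjusted p = 0.00616) and tibialis anterior (-0.71, adjusted p = 5.43e-05). That of Lrp4 was lower in diaphragm than in gastrocnemius (-0.49, adjusted p = 0.000255) and soleus (-0.39, adjusted p = 0.00637), that of Colq lower than in gastrocnemius (-0.56, adjusted p = 0.00814) and tibialis anterior (-0.63, adjusted p = 0.00295), that of Erbb3 lower than in gastrocnemius (-0.54, adjusted p = 0.0128), and that of Ncam1 lower than in gastrocnemius (-0.45, adjusted p = 0.00184) and tibialis anterior (-0.35, adjusted p = 0.0329). Etv5 went the other way against tibialis anterior (0.27, adjusted p = 0.031).

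Among the limb muscles, the change of Colq was higher in gastrocnemius than in soleus (0.53, adjusted p = 0.0181) and lower in soleus than in tibialis anterior (-0.61, adjusted p = 0.00671), and that of Lrp4 was higher in gastrocnemius than in tibialis anterior (0.39, adjusted p = 0.0373). The share of all genes that passed was 8.44% for diaphragm against gastrocnemius with 5 of 10 members, 11.7% against soleus with 2 of 10 and 6.89% against tibialis anterior with 4 of 10. It was 5.81% for gastrocnemius against soleus, 0.688% for gastrocnemius against tibialis anterior and 4.61% for soleus against tibialis anterior, each with 1 of 10. Without the 8 libraries that followed GC content all 14 still passed, and Ncam1 in diaphragm against soleus (-0.31, adjusted p = 0.0433) and Lrp4 in soleus against tibialis anterior (0.28, adjusted p = 0.0403) passed too. Without the diaphragm library at 87.4 CPM of Musk the 3 Musk differences were -0.70, -0.67 and -0.89, and the other 8 with the diaphragm still passed.

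In the mean over sexes and ages, 54 of 60 combinations of gene and muscle pair passed the adjusted p and 26 were also over the fold limit. Most genes passed the adjusted p alone as well: 88.7% for diaphragm against gastrocnemius, 85% for diaphragm against soleus, 88.8% for diaphragm against tibialis anterior, 79% for gastrocnemius against soleus, 66.2% for gastrocnemius against tibialis anterior and 78.9% for soleus against tibialis anterior. With the fold limit the share of all genes called was 51.8% for diaphragm against gastrocnemius with 5 of 10 members, 38.8% for diaphragm against soleus with 4 of 10, 53.8% for diaphragm against tibialis anterior with 4 of 10, 30.3% for gastrocnemius against soleus with 5 of 10, 16.2% for gastrocnemius against tibialis anterior with 1 of 10 and 32.3% for soleus against tibialis anterior with 7 of 10. Muscles that come from the same mouse were treated as separate samples in this fit.

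Musk was highest in gastrocnemius (64.6 ± 28.3 CPM, SD, n = 104) and soleus (56.0 ± 13.8, n = 103) and lower in tibialis anterior (22.9 ± 11.7, n = 102) and diaphragm (22.5 ± 8.46, n = 98). Gastrocnemius was 2.85-fold over tibialis anterior (adjusted p = 2.69e-120), although both are fast limb muscles, and no other member was called between them. Agrn was highest in the diaphragm (25.8 ± 7.09 CPM), 1.78-fold over gastrocnemius, 1.74-fold over tibialis anterior and 1.61-fold over soleus, and its levels in tibialis anterior and gastrocnemius did not differ by the test (adjusted p = 0.531). Lrp4 went from 31.8 CPM in soleus through 27.6 CPM in diaphragm and 23.8 CPM in gastrocnemius to 19.4 CPM in tibialis anterior, with only the ends over the fold limit (1.65-fold). Dok7 was at 5.29 CPM in soleus, 4.81 CPM in tibialis anterior, 3.56 CPM in diaphragm and 3.48 CPM in gastrocnemius, with soleus over gastrocnemius called (1.52-fold) and neither soleus and tibialis anterior (adjusted p = 0.0825) nor diaphragm and gastrocnemius (adjusted p = 0.63) passing. Both of these Dok7 pairs passed without the 8 libraries that followed GC content, each with a log2 difference of 0.12 to 0.13 (adjusted p = 0.0125 and 0.00790).

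Rapsn and Ache were highest in the fast limb muscles. Rapsn was at 16.3 CPM in tibialis anterior, 14.9 CPM in gastrocnemius, 10.8 CPM in soleus and 8.65 CPM in diaphragm, and Ache at 16.1, 15.3, 7.53 and 5.18 CPM in the same order. Tibialis anterior was 3.12-fold over diaphragm for Ache (adjusted p = 4.72e-102) and 1.88-fold for Rapsn, and tibialis anterior and gastrocnemius did not pass for Rapsn (adjusted p = 0.0506) or Ache (adjusted p = 0.13). Both passed without the 8 libraries, under the fold limit (gastrocnemius minus tibialis anterior -0.14 with adjusted p = 8.55e-07 for Rapsn and -0.10 with adjusted p = 0.0112 for Ache). Without the 8 libraries that followed GC content the diaphragm means were 9.19 CPM for Rapsn and 5.46 CPM for Ache, and all the calls with the diaphragm were kept. Colq, whose product anchors the enzyme, had its highest level where Ache was low: it was at 16.4 ± 4.08 CPM in soleus, 9.37 CPM in diaphragm, 5.85 CPM in gastrocnemius and 4.05 CPM in tibialis anterior, a 4.08-fold range between soleus and tibialis anterior (log2 2.03 ± 0.05 SE, adjusted p = 5.87e-141).

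Ncam1 was at 39.995 ± 9.93 CPM in soleus (SD), 14.5 CPM in gastrocnemius, 13.6 CPM in diaphragm and 10.3 CPM in tibialis anterior, so that soleus was 3.92-fold over tibialis anterior, 2.94-fold over diaphragm and 2.77-fold over gastrocnemius. Its lowest soleus library, at 21.2 CPM, was above the highest tibialis anterior library, at 19.2 CPM. Erbb3 was also highest in soleus (5.64 CPM), 1.995-fold over tibialis anterior and 1.76-fold over gastrocnemius, and Etv5 was the member with the least range, from 15.9 CPM in soleus to 11.9 CPM in tibialis anterior, with no pair over the fold limit. The 8 slow-fibre markers summed to a median of 15370 CPM in male and 21430 CPM in female soleus and to 99.8 and 134 CPM in male and female tibialis anterior. The 15 Schwann cell markers summed to medians of 143 and 142 CPM in male and female soleus and to 84.7 and 88.7 CPM in tibialis anterior. In the diaphragm, where Ncam1 and Erbb3 were lower than in soleus, these markers summed to 156 and 153 CPM, and in gastrocnemius to 128.3 and 132.5 CPM. The part of either in the muscle differences was not tested.

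**Figure D4:**
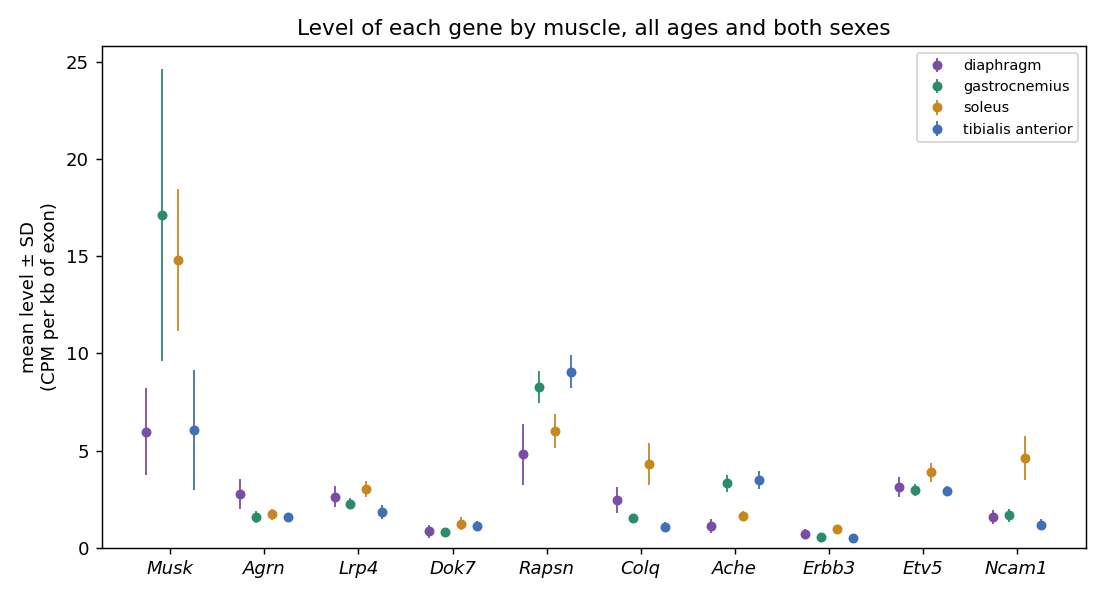
Mean level of each gene by muscle with the SD over libraries, in CPM per kb of exon (vertical axis), all ages and both sexes together. Musk and Rapsn have the highest levels per length, Musk reaching 17.1 CPM per kb in gastrocnemius and Rapsn 9.05 CPM per kb in tibialis anterior, and soleus is highest for Ncam1 and Colq.

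Per kb of exon, with lengths from the GENCODE annotation of GRCm38 in place of the submitters' own gene model, Musk was the most abundant member in gastrocnemius (17.1 CPM per kb) and soleus (14.8 CPM per kb), and Rapsn in tibialis anterior (9.05 CPM per kb). In the diaphragm Musk (5.96 CPM per kb) and Rapsn (4.80 CPM per kb) stood first and second. Erbb3 was the least abundant in every muscle, from 0.472 CPM per kb in tibialis anterior to 0.938 CPM per kb in soleus. Rapsn, Ache and Ncam1 overlap a non-coding gene on the opposite strand (Gm13778, Gm42456 and Gm11149) and Colq a coding gene on the same strand (Gm49387), and the use of strand in counting is not stated.

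Between the sexes, Musk was the member that differed most. In gastrocnemius its mean was 88.7 ± 17.8 CPM (SD, n = 52) in males and 40.5 ± 11.1 CPM (n = 52) in females, a log2 difference of female minus male of -1.17 ± 0.05 SE (2.25-fold, adjusted p = 7.41e-42). Every female library was below every male library of its age at all 6 ages. In tibialis anterior the means were 31.2 ± 10.3 CPM in males and 14.5 ± 5.29 CPM in females (2.17-fold, adjusted p = 4.11e-29), with no overlap at 6, 12 and 18 months. In soleus the difference was 1.29-fold (adjusted p = 4.08e-12) and in diaphragm 1.21-fold (adjusted p = 0.00416), both under the fold limit, and without the diaphragm library at 87.4 CPM the latter was -0.22 on the log2 scale. In gastrocnemius the ratio of males to females went from 3.19 at 6 months to 2.71, 2.5, 1.59, 1.69 and 2.22 at the later ages in order, and in soleus it was 1.49, 1.5, 1.5, 1.05, 1.08 and 1.28. In diaphragm it was 1.16, 1.12, 1.75, 0.859, 0.934 and 1.53, so that females were higher in the mean at 21 and 24 months.

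Of the 40 combinations of gene and muscle, 2 were called between the sexes, both of them Musk, and 24 passed the adjusted p, 16 higher and 8 lower in females. On the adjusted p alone 58.3% of all genes passed in gastrocnemius with 7 of 10 members, 47.8% in tibialis anterior with 8, 30.9% in soleus with 7 and 18.9% in diaphragm with 2. With the fold limit, 8.17% of all genes were called in gastrocnemius, 5.27% in tibialis anterior, 5.18% in diaphragm and 3.97% in soleus. Ncam1 was higher in females in all 4 muscles, and its log2 difference was 0.53 in soleus, 0.43 in the diaphragm, 0.42 in tibialis anterior and 0.35 in gastrocnemius. Its soleus means were 33.0 ± 6.31 CPM in males and 47.2 ± 7.54 CPM in females (1.44-fold, adjusted p = 6.66e-16). Lrp4 was higher in females in tibialis anterior, at 22.3 ± 2.81 against 16.5 ± 2.29 CPM (log2 0.44, adjusted p = 2.81e-19), with no overlap at 12 and 18 months. Dok7 went with Musk and was lower in females in gastrocnemius (-0.37, adjusted p = 3.99e-11) and tibialis anterior (-0.18, adjusted p = 0.00201), and Erbb3 was higher in females in gastrocnemius (0.30), soleus (0.19) and tibialis anterior (0.22). Slow-fibre markers summed to medians of 869 CPM in male and 1894 CPM in female gastrocnemius, and their part in the sex differences was not tested.

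**Figure D5:**
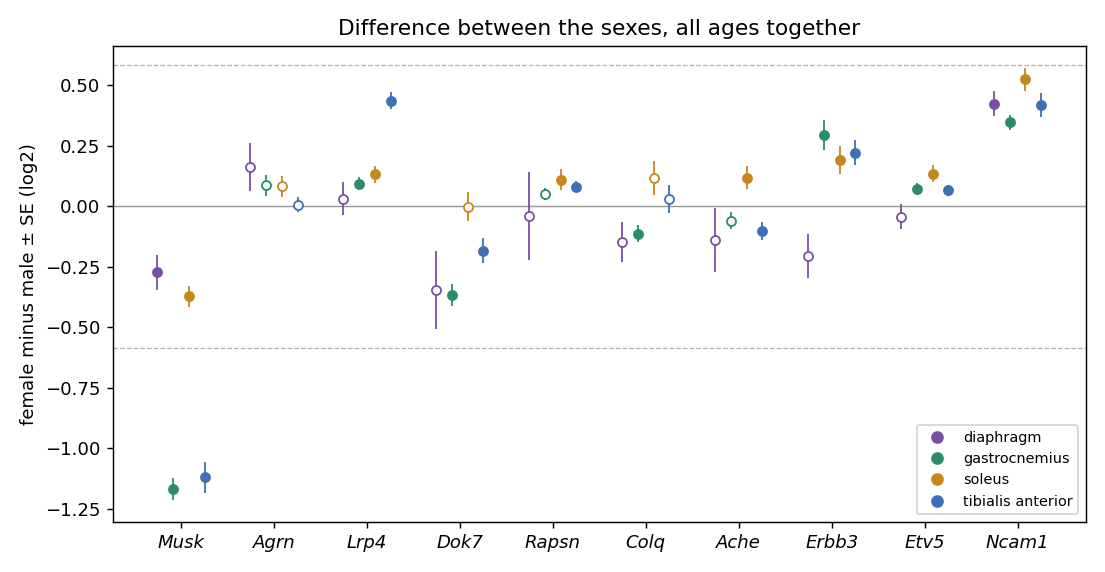
Difference between the sexes for each gene, as the log2 level of females minus males with its SE (vertical axis), by muscle (colours), all ages together. Filled points had an adjusted p below 0.05 and dashed lines mark the fold limit of 1.5. Musk in gastrocnemius (-1.17) and tibialis anterior (-1.12) lies past the lower line, and all 4 points of Ncam1 lie above 0.

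Whether the change from 6 to 27 months differed between the sexes was tested in 40 combinations, of which edgeR and limma-voom called 0. In edgeR 5 had an unadjusted p below 0.05, and the share of all genes at that limit was not counted. Of all genes, 1.73% passed the adjusted p in tibialis anterior, 1.6% in gastrocnemius, 0.855% in soleus and 0% in diaphragm. Musk in gastrocnemius was nearest, with a rise that was larger in females by 0.51 ± 0.16 SE on the log2 scale (adjusted p = 0.0685), followed by Dok7 in gastrocnemius (0.46, adjusted p = 0.114). Without the 8 libraries that followed GC content the Musk difference was 0.59 (adjusted p = 0.00501). Musk in diaphragm went the other way (-0.59, unadjusted p = 0.015), and without the library at 87.4 CPM it was -0.24 (unadjusted p = 0.197). The Musk difference in gastrocnemius also passed with the replicate number as a block (0.52, adjusted p = 0.0437) and with the set of sample numbers as a term (0.53, adjusted p = 0.0468). For Musk in gastrocnemius the test turned on these choices. In soleus the Musk rise was larger in females by 0.21 ± 0.14 SE on the log2 scale (adjusted p = 0.528). There and for the other members, calls of age in females and not in males are not shown to differ between the sexes.

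Other genes of the junction were taken from a list of 44, of which 43 were tested in the limb muscles. At any older age 6 rose and 3 fell in male gastrocnemius, 5 and 1 in female gastrocnemius, 3 and 1 in male soleus, 5 and 2 in female soleus, 6 and 3 in male tibialis anterior, 4 and 1 in female tibialis anterior, 1 and 2 in male diaphragm and 0 and 3 in female diaphragm. Of all tested genes, 8.06% were called in male and 9.44% in female gastrocnemius, and 2.85% and 8.52% in male and female soleus. In tibialis anterior 8.53% and 9.25% were called in males and females, and in diaphragm 11% and 2.95%. Of the 5 acetylcholine receptor subunits, the molecules that Rapsn gathers, 4 rose in gastrocnemius and tibialis anterior of both sexes, 3 in soleus of both sexes and 0 in the diaphragm. At 27 months Chrnd was 2.37-fold and Chrna1 1.88-fold higher in female gastrocnemius, and Chrnb1, the beta subunit, was between 1.52-fold and 1.74-fold higher in all 6 limb combinations. Chrng, the fetal gamma subunit, was called in all 6 as well, with medians of 0.0943 to 0.204 CPM over all libraries of a limb muscle. Chrne, the adult epsilon subunit, was not called in any. The synaptic collagens Col4a3 and Col4a4 fell in the diaphragm of males (0.417-fold and 0.416-fold) and females (0.542-fold and 0.517-fold) at 27 months, and also in male gastrocnemius (0.596-fold and 0.631-fold) and male tibialis anterior (0.5677-fold and 0.6075-fold).

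The median log2 fold change of the 10 members at 27 months was 0.38 in female gastrocnemius, where that of all tested genes was 0.02, and in the other 7 combinations it lay between -0.11 and 0.10, where those of all genes lay between -0.03 and 0.03. Genes that fibres make after loss of the nerve were taken from a list of 8, which shares Chrng with the junction list. Of the 8, 6 rose in female and 7 in male gastrocnemius, 5 in female and 7 in male soleus, 8 in female and 6 in male tibialis anterior, 2 in female and 4 in male diaphragm, and in each none fell. Of all tested genes, between 2.85% (male soleus) and 11% (male diaphragm) were called over the combinations of muscle and sex. The sum of the 8 listed genes ran from 64.5 to 96.7 CPM at 6 months and from 111 to 218 CPM at 27 months in female gastrocnemius. In female diaphragm it ran from 36.1 to 66.9 CPM (median 59.4) and from 43.15 to 70.1 CPM (median 60.9), and in male diaphragm from 47.3 to 56.4 CPM (median 49.95) and from 38.1 to 425 CPM (median 61.8), where the highest was the library at 87.4 CPM of Musk. The 15 Schwann cell markers, with 6 falling in female soleus and none in female gastrocnemius, summed to medians of 138 CPM at 6 months and 131 CPM at 27 months in female gastrocnemius. The part of either list in the changes of the members was not tested.

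Across all libraries, each taken as its deviation from its group's mean log2 CPM, Musk and the log2 sum of these 8 genes had a Pearson correlation of 0.61 (Spearman 0.56), which was 0.77 in tibialis anterior and 0.50 in soleus. The 3 of 14181 genes whose deviations were most like those of Musk were Myf6, a myogenic factor (0.61), Txnrd1 (0.56) and Odc1 (0.56), and without the 8 libraries that followed GC content they were Tmbim1 (0.59), Ddb1 (0.59) and Myf6 (0.59). For Ncam1 they were Uchl1 (0.57), Myl12a (0.57) and Chrnd (0.57), and the same 3 genes came first without those libraries. For the GC-rich members the likeness lay mostly in the 8 libraries: Rapsn had Ndufs7 as its nearest gene at 0.97 with them and Fastk at 0.70 without them, and Dok7 had Ndufs7 at 0.86 with them and Mast2 at 0.55 without them. Libraries of a muscle share their depth range and RNA composition, and the correlations are descriptions with no test.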

How the data were processed

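Whole-muscle RNA of male and female mice was sequenced by the authors as strand-specific total RNA, with ribosomal RNA removed and paired reads, and quantified with ArrayStudio on mm10 with an in-house RefSeq-based gene model. Its version and the use of strand in counting are not given in the sources. The deposited values are raw counts per gene. For the 329 symbols on more than 1 row, the row with the largest total was kept. Their other rows (633 rows, 0.0335% of counts) were left out.

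Counts were tested with edgeR 4.0.16 in R 4.3.3 (filterByExpr, TMM, glmQLFit and glmQLFTest) with Benjamini-Hochberg adjustment over all tested genes. Ages and lines on log2 age were fitted per muscle and sex, sexes per muscle, and muscles over all libraries. Calls needed an adjusted p below 0.05 and, for ages, sexes and muscles, a fold over 1.5. CPM are TMM-scaled and log2 CPM used a prior count of 0.5. Depth, from 38583802 to 300089909 counts, sets the counting error of low members: the lowest count was 2, for Rapsn. The p-values measure the spread between libraries. Alternatives were limma-voom (limma 3.58.1), DESeq2 1.42.0, other normalizations, filters and limits, replicate terms and libraries left out. Leaving out the libraries with liver or GC signal and single libraries was chosen after seeing the data. The members and lists were chosen with earlier results of these data known. Named were all 10 members, up to 8 other junction genes with the largest change at 27 months among those called, and for each member the nearest genes by correlation. Scripts were tested on simulated data. Rat libraries were not used here.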

Additional observations from a re-analysis of the deposited data

Results flagged for a closer look

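In 160 groups of gene, muscle and sex at 6 and 27 months, 1 library lay far from the rest of its group in 29. Groups of the other ages were not examined in this way. Chance flags about 1 in 20 groups, but flags of the same library are not independent, so the count was not set against that rate. The largest number, 8, came from male diaphragm 6 months replicate 2, a library that followed GC content, which was the lowest of its group for Agrn (5.50 CPM), Lrp4 (11.1), Dok7 (0.157), Rapsn (0.0524), Colq (2.88), Ache (0.367), Erbb3 (1.15) and Etv5 (5.30). Other libraries that followed GC content were the lowest for Agrn in female diaphragm at 6 months (6.37 CPM), for Colq (1.87 CPM), Ache (0.368 CPM) and Etv5 (5.95 CPM) in female diaphragm at 27 months, and for Musk in female gastrocnemius at 27 months (21.5 CPM), and the last of these was also the highest of its group for Agrn (36.3 CPM) and Rapsn (21.9 CPM).

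Musk stood far above its group in male diaphragm at 27 months replicate 8 (87.4 CPM) and in male tibialis anterior at 27 months replicate 6 (80.5 CPM), and the latter library was the lowest of its group for Etv5 (9.95 CPM). Lrp4 was far below its group in replicate 8 of male gastrocnemius (16.9 CPM) and of male tibialis anterior (9.65 CPM) at 27 months, and far above it in male soleus at 6 months (34.9 CPM), female soleus at 6 months (39.6 CPM) and female soleus at 27 months (43.6 CPM). The female soleus library at 6 months with the highest Lrp4, replicate 0, also had the highest Erbb3 (10.5 CPM). Single libraries stood apart as well for Rapsn (18.4 CPM), Erbb3 (5.51 CPM) and Etv5 (16.7 CPM), each high in male gastrocnemius at 27 months, for Ache, low in female soleus at 6 months (5.48 CPM), and for Etv5, high in female tibialis anterior at 6 months (14.6 CPM).

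The test of the difference between muscles in the log2 change from 6 to 27 months passed for 14 combinations. For diaphragm minus gastrocnemius these were Musk (-0.525), Lrp4 (-0.492), Colq (-0.562), Erbb3 (-0.543) and Ncam1 (-0.452). For diaphragm minus soleus they were Musk (-0.507) and Lrp4 (-0.386), and for diaphragm minus tibialis anterior Musk (-0.713), Colq (-0.634), Etv5 (0.27) and Ncam1 (-0.346). Among the limb muscles they were Colq for gastrocnemius minus soleus (0.534) and soleus minus tibialis anterior (-0.605), and Lrp4 for gastrocnemius minus tibialis anterior (0.39).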

How the results depend on the processing

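Of the recomputed counts of calls, 112 stayed within 1.5 times the count reported, 14 were higher and 6 were lower. With a lower fold limit the counts were 7 (male ages), 10 (female ages), 42 (muscles) and 9 (sexes), and with no fold limit 9, 16, 54 and 24. With Bonferroni adjustment they were 0 (male ages), 1 (male lines), 7 (female lines) and 1 (change between muscles), and at an adjusted p of 0.01 they were 3 (male lines) and 9 (change between muscles). Without the 8 libraries that followed GC content, a choice made after seeing the data, they were 2 (male ages) and 1 (change between sexes). Leaving out 1 replicate number at a time gave 1 to 2 calls for male ages, 4 to 5 for female ages, 4 to 7 for male lines and 13 to 15 for female lines, and was not run for the other counts. DESeq2 called 1 and 4 for the ages.

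Single effects that had passed were followed for the ages, the lines, the sexes and the change between muscles. These 43 effects gave 366 values under the alternatives. The 26 called differences in level between muscles were not followed one by one. Of these values 360 stayed on their side of the threshold and none reversed. Effects that passed only under an alternative are not in this count. In limma-voom Etv5 (adjusted p = 0.0768) and Ncam1 (0.0686) in diaphragm against tibialis anterior and Lrp4 in gastrocnemius against tibialis anterior (0.108) no longer passed, and the cause was not tested.

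With the replicate number as a block the counts were 1 and 4 for ages, 5 and 13 for lines, 2 for sexes and 1 for the change between sexes (Musk in gastrocnemius, 0.52, adjusted p = 0.0437), and with the set of sample numbers as a term that last count was also 1. Within limma-voom the block gave 28 for muscles and 12 for their change. Ncam1 in male tibialis anterior had an adjusted p of 0.0575 for its line under the block. Across ages same-numbered libraries did not deviate together (median correlations of -0.001 to 0.047). Across limb muscles they did in part (medians of 0.187 to 0.327, over 0.1 in 76 of 103, 92 of 102 and 78 of 101 pairs), a hint from the data and not the design. Counting error limits Rapsn and Dok7 in the diaphragm libraries that followed GC content, where they had as few as 2 and 6 counts at totals of 38583802 to 104836980.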

Other observations

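The 10 genes did not form a single co-varying block across libraries. Without the 8 libraries that followed GC content, the median of the 45 correlations between members, over deviations from the group means of 399 libraries, was 0.12, and with those libraries it was 0.328 over all libraries. In the diaphragm the medians were 0.234 without and 0.544 with them. The highest of the 45 without them was 0.516, between Lrp4 and Ache. In gastrocnemius Musk and Agrn went against each other (r = -0.439 over 102 libraries, Spearman -0.461). These values are descriptions, since the points share depth and composition within a library.

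In female soleus the Schwann cell marker sum varied widely between mice, from 119.7 to 527 CPM at 6 months and from 116.9 to 378.6 CPM at 27 months. Erbb3, which Schwann cells also make, followed that sum in soleus with r = 0.368 over 103 libraries, in tibialis anterior with r = 0.396 and in gastrocnemius with r = 0.255 over 104, but not in the diaphragm (r = -0.414 over 98 libraries, and -0.115 without the 6 that followed GC content). The part of nerve in the samples in the Erbb3 levels was not tested.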
